A study of Mus musculus with 50 samples.

Results

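Binding of the glucocorticoid receptor (GR) was mapped by CUT&RUN in 4 libraries of 250000 nuclei each from 3T3 cells, an immortalized mouse fibroblast line: 2 libraries from cells treated with dexamethasone (DEX) at 200 nM for 2 h and 2 from cells given vehicle (0.01% ethanol) for the same time. In CUT&RUN an antibody directs a nuclease to the bound factor, so that short fragments are released around it. Both groups had been starved of hormone for 48 h in medium with charcoal-stripped serum, so the comparison asked where GR is found once its ligand is added. These 4 libraries belong to a series of 50, of which 39 had a peak list here. A mixture of 2 GR antibodies was used, and control libraries made with IgG entered the authors' peak calling but were not analysed here. The study counts the 2 libraries of a group as biological replicates but does not describe how the cultures were kept apart. Each p-value therefore refers to these libraries only, and with so few it does not measure their spread.

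GR is a nuclear receptor that sits in the cytoplasm with heat shock protein chaperones until a glucocorticoid such as cortisol, corticosterone or the synthetic agonist DEX binds it. The liganded receptor enters the nucleus and contacts DNA as a dimer at the glucocorticoid response element (GRE), an inverted repeat of a short half-site with 3 bases between the copies, and it is also found at elements of other factors such as AP-1, the dimer of Fos and Jun proteins. In fibroblasts glucocorticoids are known for their effects on matrix production, cell adhesion, metabolism, the circadian clock and inflammatory genes.

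DEX libraries held many more peaks than vehicle libraries. There were 5010 and 4654 peaks in DEX replicates 1 and 2, and 382 and 1035 in vehicle replicates 1 and 2. Both DEX libraries stood above both vehicle libraries, by 7.68-fold between geometric means, a log2 difference of 2.94 (exact permutation test, two-sided, p = 0.333, which is the smallest that 2 against 2 libraries allow). Vehicle replicate 2 stood apart from vehicle replicate 1: the log2 difference was 3.66 without replicate 2 and 2.22 without replicate 1.

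The depth behind these lists could be read from the files only in part. The deposited fold and p-value of a peak together give its pileup, the number of overlapping fragments or reads at the summit, and the background expected there. The pileup came out whole for every peak but 1, in vehicle replicate 2. The lowest background was 0.317 and 0.367 per position in DEX replicates 1 and 2 and 0.346 and 0.320 in vehicle replicates 1 and 2, with overlapping groups. A peak at that background needed a pileup of 5 in DEX replicates 1 and 2 and vehicle replicate 2, and of 6 in vehicle replicate 1. Peaks with a pileup of at least 8 numbered 3683 and 3675 with DEX and 341 and 773 with vehicle, so the DEX libraries stayed above the vehicle libraries when the same pileup was asked of each.

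Peaks called in both libraries of a group were merged where they shared at least 1 bp, and each merged region is called a site. There were 2885 DEX sites and 238 vehicle sites. Of the peaks of DEX replicate 1, 58.2% overlapped a peak of replicate 2, and 62.9% of those of replicate 2 overlapped a peak of replicate 1. With vehicle, 62.6% of the peaks of replicate 1 recurred in replicate 2, and 23.1% of those of replicate 2 recurred in replicate 1.

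No vehicle peak overlapped 2293 of the 2885 DEX sites (79.5%, Wilson 95% interval 78 to 80.9%), and these are called DEX-only sites. A further 388 DEX sites had a peak in 1 vehicle library and 204 in both. In the other direction, 19 of the 238 vehicle sites had no DEX peak (7.98%, interval 5.17 to 12.1%), and the count was 307 without vehicle replicate 1, 52 without vehicle replicate 2 and 29 without DEX replicate 1 or 2. Over the 7037 merged regions of all 4 libraries, the DEX-only pattern took 32.6% and its mirror image 0.270%. Without vehicle replicate 2 the DEX-only count was 2611, and without DEX replicate 1 or 2 it was 3966 or 4290, since the peaks of a lone library then stood for its group.

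The count rests in part on how many peaks each library gave. When every library was cut to its best 382 peaks by q, 130 of 223 DEX sites had no vehicle peak and 76 of 170 vehicle sites had no DEX peak. The intervals printed here cover counting error only.

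Sequences are shown to let the letters at the summits be read, in mm10 on the plus strand, with 50 bp to either side of the summit and with each GRE and AP-1 match in capitals. The GRE was searched as GNACA, then any 3 bases, then its reverse complement TGTNC, and AP-1 as TGANTCA, both of which read the same on either strand. First are the DEX-only sites among the 20 best ranked by fold that held a GRE: in an intron of Fkbp5 (chr17:28420280-28420380), in an intron of Per1 (chr11:69097029-69097129), 96.3 kb upstream of Sgk1 (chr10:21785845-21785945), in an intron of Ltbp1 (chr17:75275521-75275621), 65.7 kb upstream of 4930432M17Rik (chr3:121605000-121605100) and 233 kb downstream of the start of Sema3d (chr5:12616369-12616469).
Fkbp5: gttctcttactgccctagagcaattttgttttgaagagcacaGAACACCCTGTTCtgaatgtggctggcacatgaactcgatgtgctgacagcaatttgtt
Per1: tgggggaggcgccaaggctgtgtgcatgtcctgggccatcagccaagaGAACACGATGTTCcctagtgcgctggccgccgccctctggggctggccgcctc
Sgk1: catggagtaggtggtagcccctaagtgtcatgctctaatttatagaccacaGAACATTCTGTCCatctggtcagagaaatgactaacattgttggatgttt
Ltbp1: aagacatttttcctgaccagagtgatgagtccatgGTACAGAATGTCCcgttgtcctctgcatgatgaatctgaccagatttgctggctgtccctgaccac
4930432M17Rik: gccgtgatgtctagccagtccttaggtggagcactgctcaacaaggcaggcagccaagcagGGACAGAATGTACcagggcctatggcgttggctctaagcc
Sema3d: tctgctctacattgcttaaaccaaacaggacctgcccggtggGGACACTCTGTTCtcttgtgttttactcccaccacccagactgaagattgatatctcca

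Next are DEX-only sites with a GRE within 50 kb of the start of known glucocorticoid targets, to show the element at weaker sites: Dusp1 (chr17:26535305-26535405), Klf9 (chr19:23135076-23135176), Mt1 and its neighbour Mt2, which share one site (chr8:94171459-94171559), Glul (chr1:153901565-153901665), Fam107a (chr14:8309805-8309905) and Mertk (chr2:128746656-128746756).
Dusp1: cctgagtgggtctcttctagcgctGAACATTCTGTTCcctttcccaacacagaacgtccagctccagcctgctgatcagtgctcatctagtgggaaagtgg
Klf9: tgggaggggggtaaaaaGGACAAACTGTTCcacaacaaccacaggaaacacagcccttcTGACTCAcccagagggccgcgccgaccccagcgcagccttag
Mt1: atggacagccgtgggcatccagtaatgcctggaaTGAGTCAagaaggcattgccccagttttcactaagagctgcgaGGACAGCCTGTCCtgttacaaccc
Glul: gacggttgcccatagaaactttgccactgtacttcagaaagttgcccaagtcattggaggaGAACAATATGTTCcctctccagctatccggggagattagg
Fam107a: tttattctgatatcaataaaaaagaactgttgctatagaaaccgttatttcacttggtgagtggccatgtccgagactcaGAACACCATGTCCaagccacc
Mertk: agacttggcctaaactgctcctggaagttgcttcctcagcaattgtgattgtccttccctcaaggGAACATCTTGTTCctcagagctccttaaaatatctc

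For contrast, 3 of the best-ranked sites called in all 4 libraries, upstream of Snx9 (chr17:5822617-5822717), upstream of Uqcc2 (chr17:27142040-27142140) and 248 kb from the start of Mat2b (chr11:40446999-40447099), and 1 site called only with vehicle, in an intron of Gm7115 (chr3:83828217-83828317), are given as well. They were picked as the best ranked that hold AP-1, which is therefore no finding, and of the 8 best vehicle-only sites 3 hold it. The Mat2b site holds a GRE besides.
Snx9: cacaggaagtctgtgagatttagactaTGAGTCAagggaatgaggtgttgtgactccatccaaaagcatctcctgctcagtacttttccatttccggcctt
Uqcc2: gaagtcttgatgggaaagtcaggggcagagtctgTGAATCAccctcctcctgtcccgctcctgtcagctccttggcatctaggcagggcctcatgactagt
Mat2b: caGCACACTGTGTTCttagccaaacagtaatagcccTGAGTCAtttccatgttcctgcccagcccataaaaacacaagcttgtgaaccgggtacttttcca
Gm7115: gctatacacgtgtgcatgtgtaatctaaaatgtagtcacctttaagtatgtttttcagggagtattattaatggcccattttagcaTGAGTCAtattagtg

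Textbook targets of GR, namely Fkbp5, Per1 and Sgk1, were among the genes at the best-ranked DEX-only sites. Best ranked was the intronic Fkbp5 site (chr17:28420191-28420728), with a fold enrichment over background of 25.3 in DEX replicate 1 and 21.3 in DEX replicate 2 and summit pileups of 48 and 43. Fkbp5 encodes a co-chaperone that lowers the affinity of GR for its ligand. Neither vehicle library had a peak there, and the element GAACACCCTGTTC was centred 2 bp from the summit. The site is 97.2 kb past the start of the gene.

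Fkbp5 carried more than that site. Across the gene and 50 kb to either side lay 20 DEX sites, of which 17 were inside the gene, and all 20 were DEX-only. DEX replicates 1 and 2 had 23 and 20 peaks in that stretch and both vehicle libraries had 0. GRE matches stood at the summits of 2 of the 20 sites, so most of the Fkbp5 sites did not hold these letters in their summit windows.

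An intron of Hif3a, a member of the hypoxia-inducible factor family, held the next site (chr7:17058193-17058514), at folds of 25 and 17.6. The same position is within 500 bp of the start of a noncoding transcript, 4833404L02Rik. No GRE was found in its summit window.

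Per1 encodes a repressor of the circadian clock. Its intronic site 1.86 kb from the start (chr11:69096932-69097132) had folds of 19.2 and 20.3 in DEX replicates 1 and 2. At the site upstream of Sgk1, a kinase that controls ion transport and cell survival, the folds were 19 and 19.5 (chr10:21785792-21786040). Both sites lacked a vehicle peak, and their DEX replicates differed little.

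Ltbp1, which encodes a protein that binds latent TGF-beta in the matrix, had folds of 18.3 and 17.4 at its intronic site (chr17:75275333-75275679). The site 5.62 kb upstream of Hspa8, the constitutive Hsc70 chaperone, had folds of 18.4 and 13.4 (chr9:40795268-40795520). Prickle1, a planar cell polarity gene, had 2 of the 20 best sites, at 118 and 104 kb upstream of its start.

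The remaining members of the 20 lay in or nearest to Fggy, Gm20696 (near Foxp1), Wdr75, Rad51b, Med13l, Nek7, Tbl1xr1, 4930432M17Rik, Sema3d, Gm10974, Chd2 and Nmur2. Over the 20 sites the folds ran from 13.4 to 25.3 and the pileups from 18 to 49. Most were far from coding starts: 15 were over 50 kb from the nearest coding start, and 3 were within 500 bp of the start of any transcript. In their summit windows, 6 held the full GRE, 11 the GRE core and 2 AP-1.

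**Figure D1:**
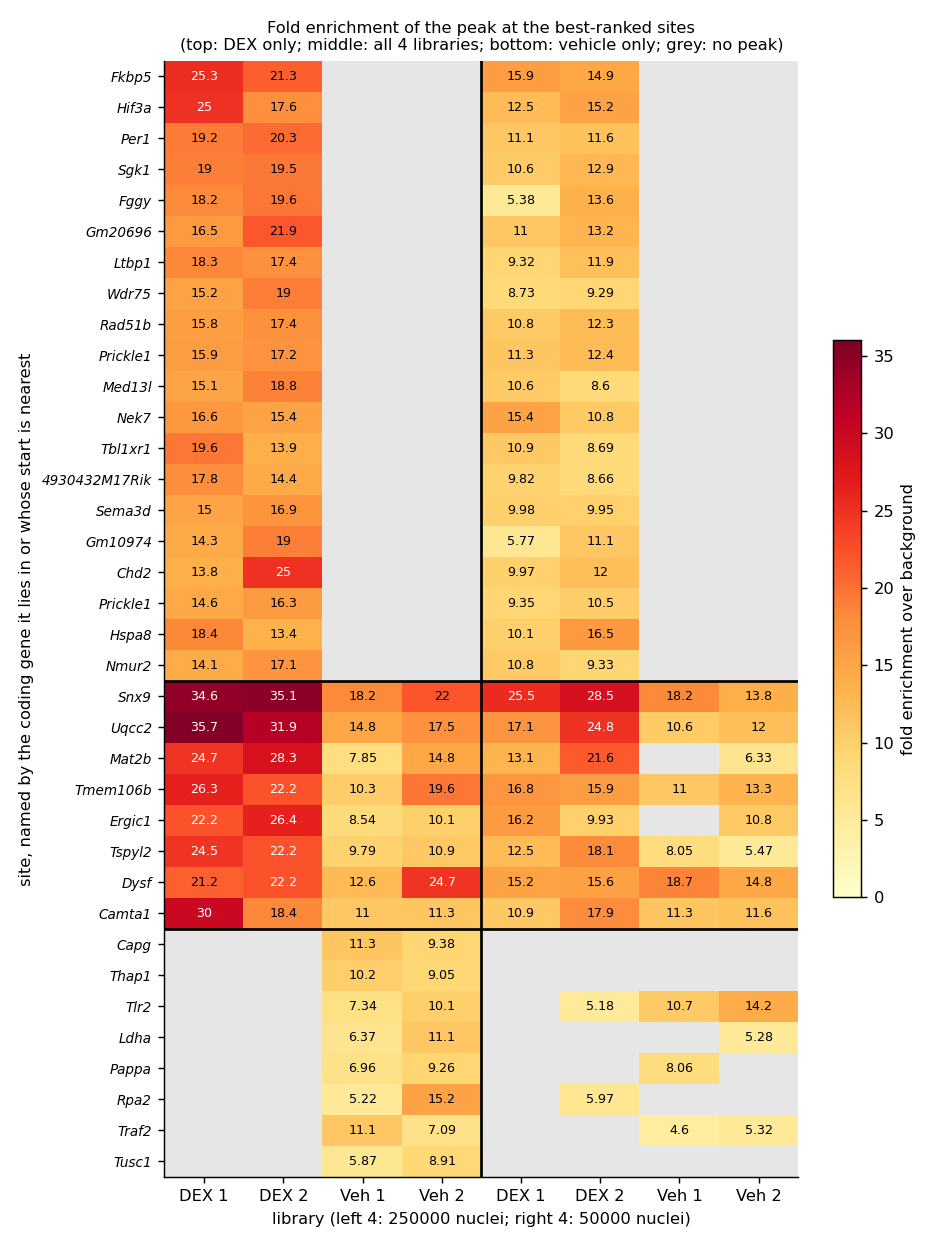
Fold enrichment of the peak (number and colour) at the 20 best-ranked DEX-only sites, the 8 best called in all 4 libraries of 250000 nuclei and the 8 best called in both vehicle libraries and no DEX library, in rows, for each 3T3 library, in columns. Grey cells have no called peak, and the DEX-only sites were all called in both DEX libraries of 50000 nuclei (5.38 to 16.5) and in neither vehicle library of 50000 nuclei.

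Libraries of 50000 nuclei, which played no part in choosing the sites, had peaks at the same places. All 20 best DEX-only sites were called in both DEX libraries of 50000 nuclei and 0 of 20 in a vehicle library of 50000 nuclei. Over all 2293 DEX-only sites, the DEX libraries of 50000 nuclei had a peak at 19.3% and 35.2% in replicates 1 and 2, and the vehicle libraries at 0.523% and 1.53%. The difference of means was 26.2 percentage points (exact permutation test, two-sided, p = 0.333, the smallest possible with 2 against 2), with no overlap between the groups. DEX-only sites had been chosen for peaks in DEX libraries and none in vehicle libraries, which favours this direction wherever peaks recur. The difference therefore describes how far the calls recurred and is no separate test of DEX.

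At DEX sites that also had a vehicle peak, the 50000-nuclei shares lay closer together. They were 32.8% and 53.7% with DEX and 22.8% and 31.8% with vehicle, a difference of 16 percentage points (exact permutation test, two-sided, p = 0.333), and again both DEX libraries were above both vehicle libraries. The classes had been split by vehicle peaks, so a higher vehicle share here than at DEX-only sites was favoured in advance. Over all 2885 DEX sites, themselves chosen by DEX peaks, the means were 30.5% ± 12 (SD, n = 2) and 6.41% ± 1.86 (SD, n = 2). The libraries of 50000 nuclei also had fewer peaks, 720 and 1391 with DEX and 189 and 320 with vehicle, which bears on every share given for them.

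Sites called in all 4 libraries of 250000 nuclei, ranked by their DEX folds, are described next. Choosing sites by high DEX folds favours DEX over vehicle in advance, so their contrast is no finding. The whole set of such regions is given further below. The site 18.7 kb upstream of Snx9, an endocytosis gene (chr17:5822449-5822857), had folds of 34.6 and 35.1 with DEX and of 18.2 and 22 with vehicle. Upstream of Uqcc2, which is needed to assemble respiratory complex III, the folds were 35.7 and 31.9 against 14.8 and 17.5 (chr17:27141869-27142334). The summit pileups overlapped at both sites, at 74 and 81 against 70 and 82 for Snx9 and at 68 and 65 against 62 and 71 for Uqcc2, so the folds differed there through the background term.

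The site in Ergic1, 30.5 kb upstream of the start of Dusp1 (chr17:26592485-26592885), had folds of 22.2 and 26.4 with DEX and 8.54 and 10.1 with vehicle, and here the pileups were apart as well, at 31 and 39 against 13 and 15. Dusp1 encodes a phosphatase that inactivates MAP kinases and is a well-known glucocorticoid target. Near Dysf, a membrane repair gene, the folds overlapped, at 21.2 and 22.2 with DEX and 12.6 and 24.7 with vehicle. The other sites among the 8 best lay near Mat2b, Tmem106b, Tspyl2 and Camta1. Of the 8, 6 held AP-1 and 1 the full GRE.

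Across the 204 regions called in all 4 libraries, both DEX folds were above both vehicle folds at 96 (47.1%) and below both at 20 (9.80%), and at 88 they overlapped. The median fold was 10.1 and 10.2 in DEX replicates 1 and 2 and 7.5 and 8.79 in vehicle replicates 1 and 2. The median log2 ratio of DEX to vehicle was 0.32. By pileup in place of fold, a comparison chosen after seeing the data, both DEX values were above both vehicle values at 82 of the 204 (40.2%), below both at 15 (7.35%) and overlapping at 107, with a median log2 ratio of 0.27. These regions had passed the peak caller in every library, so no low vehicle value could be among them.

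Vehicle sites without a DEX peak were few, and their folds ran from 4.64 to 15.2. The best ranked lay in an intron of Capg, which encodes an actin-capping protein (chr6:72552222-72552339), with folds of 11.3 and 9.38 in vehicle replicates 1 and 2. Another lay 0.121 kb upstream of Rpa2, a subunit of the single-stranded DNA binding protein RPA, at 5.22 and 15.2. Of the 8 best, 0 held a GRE or its core and 3 held AP-1. The others of the 8 lay near Thap1, Tlr2, Ldha, Pappa, Traf2 and Tusc1. Over all 19, AP-1 was at 10 and 8 with the summits of vehicle replicates 1 and 2, the GRE at 0, and the GRE core at 2 and 3. At the site in Gm7115, 13.5 kb from the start of Tlr2, a vehicle peak recurred in both vehicle libraries of 50000 nuclei, with folds of 10.7 and 14.2, and DEX replicate 2 of 50000 nuclei had a peak of 5.18.

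The full GRE separated the groups. It was found within 50 bp of the summit at 189 of 5010 peaks (3.77%, Wilson interval 3.28 to 4.34%) of DEX replicate 1 and at 188 of 4654 (4.04%, 3.51 to 4.64%) of replicate 2. With vehicle it was found at 0 of 382 peaks (Wilson interval up to 0.996%) and at 0 of 1035 (up to 0.37%). In windows of the same length 1 kb to either side of the summits, the shares were 0.299% and 0.301% with DEX and 0.262% and 0.193% with vehicle. Such windows at the starts of all coding genes held it in 0.119%.

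As a difference between summit and flank, the GRE stood at 3.61 ± 0.188 percentage points (SD, n = 2) with DEX and -0.228 ± 0.0485 (SD, n = 2) with vehicle. The groups did not overlap (difference 3.83 points, exact permutation test, two-sided, p = 0.333, 0.467 after adjustment over the 14 motifs searched by the Benjamini-Hochberg method). No motif could reach a lower p with 2 against 2 libraries. With each library cut to its best 382 peaks by q, the summit shares were 12% and 9.69% with DEX and 0% in both vehicle libraries.

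Shorter forms of the element gave the same order. The GRE core ACANNNTGT, which omits the outer bases, was at 10.6% ± 0.216 (SD, n = 2) of DEX summits and 3.85% ± 0.112 of vehicle summits, and vehicle flanks held it at 3.27% and 3.09%. The single half-site AGAACA was at 17.5% ± 0.358 and 8.92% ± 1.82. Both overlap the full GRE in their letters, so the 3 measures are not independent.

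AP-1 was the commonest of the motifs at summits in all 4 libraries, and its share of peaks was lower with DEX. In number, peaks with AP-1 were more with DEX, at 1379 and 1307 against 139 and 402 with vehicle. DEX summits held TGANTCA at 27.5% and 28.1% in replicates 1 and 2 and vehicle summits at 36.4% and 38.8%, against 2.8 to 3.53% in flanks. The difference from flanks was 24.5 ± 0.56 points with DEX and 34.4 ± 2.25 with vehicle (SD, n = 2 each, exact permutation test, two-sided, p = 0.333). In the libraries of 50000 nuclei the same order was seen, with the DEX libraries 7.38 points below.

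**Figure D2:**
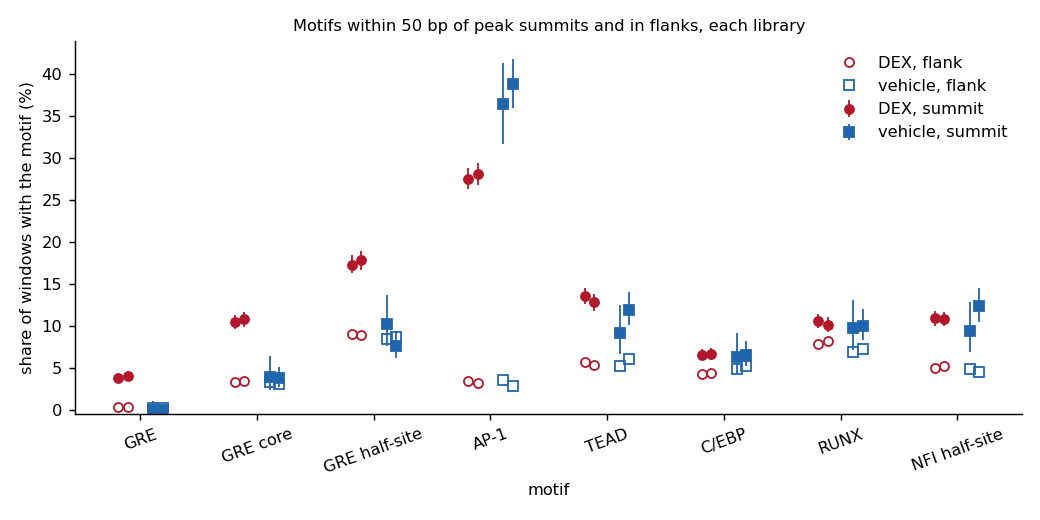
Share of windows with each of 8 motifs (percent) within 50 bp of the summit (filled, with Wilson 95% intervals) and in flanks 1 kb away (open), for each DEX (circles) and vehicle (squares) library of 250000 nuclei. The GRE is at 3.77% and 4.04% of DEX summits and at 0% of vehicle summits, while AP-1 is higher with vehicle, at 36.4% and 38.8%.

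Windows of the same length at the starts of all coding genes held the GRE core in 1.5%, AGAACA in 5.64% and AP-1 in 1.86%. They held TEAD in 3.84%, RUNX in 5.13%, C/EBP in 2.7% and the NFI half-site in 3.79%. The share of AP-1 at summits was thus far above that at starts in every library.

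Other motifs differed less. TEAD factors, which bind DNA for the YAP and TAZ coactivators, had their motif GGAATG at 13.2% ± 0.558 of DEX and 10.5% ± 1.92 of vehicle summits. RUNX (TGTGGT), C/EBP (TTGCNNAA) and the NFI half-site (TTGGCA) were at 10.3%, 6.59% and 10.8% of DEX summits and at 9.87%, 6.43% and 10.9% of vehicle summits. For RUNX the difference from flanks went the other way, at 2.28 points with DEX and 2.78 with vehicle. The difference from flanks of the NFI half-site overlapped between the groups. For the NFI half-site and C/EBP, the direction of DEX minus vehicle in this measure turned under other settings. The remaining motifs, namely the NFI full site, CTCF core (AGNNGGCGC), ETS (CCGGAAG), the GC box (GGGCGG), CREB (TGACGTCA) and the E-box (CAGCTG), were at no more than 7.55% of summits in either group on average.

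GRE matches crowded at the summit. Of the 424 GRE matches within 500 bp of the summits of DEX replicate 1, 203 (47.9%) were centred within 50 bp of it, and 208 of 421 (49.4%) in replicate 2. Vehicle replicates 1 and 2 had 0 of 10 and 1 of 21, the last reaching past the 50 bp window. AP-1 crowded there in both groups, with 32.8% and 33% of its matches centred within 50 bp with DEX and 40.7% and 40.4% with vehicle.

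**Figure D3:**
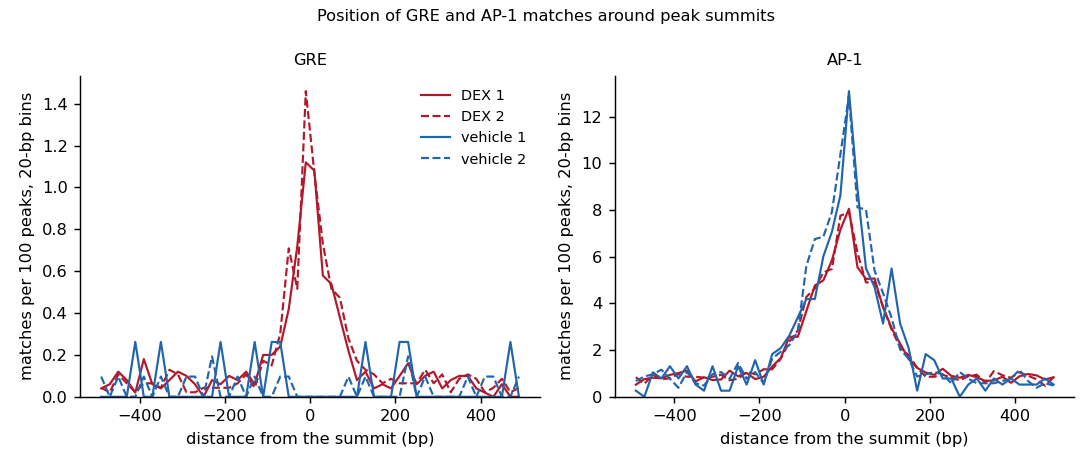
Matches of the GRE (left) and AP-1 (right) per 100 peaks in bins of 20 bp, against the distance of the match from the peak summit (bp), for DEX and vehicle replicates 1 and 2. Only the DEX lines rise at the summit for the GRE, where 47.9% and 49.4% of their matches are centred within 50 bp, and all 4 lines rise for AP-1.

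The variable base of the half-site GNACA was not evenly filled. Within 50 bp of DEX summits, GAACA made up 40.6% and 38% of the half-sites of GRE matches in replicates 1 and 2, and GCACA 16% and 15.6%. More than 100 and up to 500 bp from the summit, GAACA made up 33.6% and 34.8% and GCACA 24.8% and 22.3%. GCACA was thus lower at summits in both DEX libraries, as a description of 406 and 416 half-sites at summits.

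The GRE was more frequent among peaks of high fold. Among the best 100 peaks by fold, 8% and 16% in DEX replicates 1 and 2 held the full GRE, among the next 400 peaks 10.8% and 7%, and among peaks ranked beyond 2000 1.89% and 2.79%. The first 2 of these classes had no common order in the replicates. AP-1 did not fall in the same way, at 20% and 26% of the best 100 and 26.5% and 28% of those ranked beyond 2000. Vehicle peaks held no GRE within 50 bp of their own summits at any rank.

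DEX-only sites carried 143 of the 147 GRE-bearing DEX sites by the summits of replicate 1 and 140 of 143 by those of replicate 2. With the summits of replicate 1, 143 of 2293 DEX-only sites held a GRE (6.24%, interval 5.32 to 7.3%), against 3 of 388 sites with a peak in 1 vehicle library (0.773%, 0.263 to 2.25%) and 1 of 204 with a peak in both (0.49%, 0.0866 to 2.72%). With the summits of replicate 2 the shares were 6.11%, 0.515% and 0.49%. AP-1 went the other way, at 25.9%, 35.6% and 33.8% of the same classes in replicate 1 and 25.8%, 37.9% and 35.3% in replicate 2.

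DEX sites lay mostly away from gene starts. Of the DEX-only sites, 48.7% were in introns, 41% between genes, 2.97% in exons and 7.33% within 500 bp of a transcript start (interval 6.33 to 8.47%), and their median distance from the nearest coding start was 42.6 kb. DEX sites with a peak in both vehicle libraries were at a start in 13.2% (interval 9.26 to 18.6%) and had a median distance of 31.5 kb. Over all peaks of a library, 9.24% and 8.75% were at starts with DEX and 11.8% and 9.28% with vehicle (exact permutation test, two-sided, p = 0.333). That difference of -1.53 percentage points was smaller than the spread between the vehicle libraries, and without vehicle replicate 1 it was -0.282.

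The replicates of DEX followed each other only loosely in height. Across the 2293 DEX-only sites the log2 folds of replicates 1 and 2 had a correlation of 0.50, as a description across sites of 2 libraries that share the peak caller's threshold. The SD of the log2 ratio of the replicates was 0.44, and at 395 sites (17.2%) the folds differed by more than 1.5 times. The order of neighbouring sites in the ranking is therefore not firm.

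Of 21938 coding genes, 2226 (10.1%) had a DEX site within 50 kb of the start, 1801 (8.21%) a DEX-only site and 333 (1.52%) a vehicle site. These shares are the background against which the lists of genes were read. A site near a start does not show which gene it acts on, and neighbouring genes share sites.

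Lists of known glucocorticoid targets had a higher share of genes with DEX-only sites than all coding genes had. The members and lists were chosen with earlier results of these data known, so these shares are a description only. In the list of feedback and anti-inflammatory targets 8 of 15 genes had one (53.3%, against 8.21% of all coding genes), in that of transcription factors 7 of 15 (46.7%) and in that of metabolism and stress 7 of 15 (46.7%). A vehicle site lay near 2 of 15, 0 of 15 and 0 of 15, against 1.52% of all coding genes. Within 20 kb of the start, the counts of genes with a DEX-only site were 5, 6 and 5 of 15, against 760 of 21938 coding genes (3.46%).

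Among the feedback and anti-inflammatory targets, Fkbp5 and Dusp1 each had 8 DEX-only sites within 50 kb of the start, the highest number of any coding gene. Armc12 and Ergic1, which neighbour Fkbp5 and Dusp1, had the same number. At Dusp1 there were 10 peaks in each DEX library and 1 in each vehicle library. Nfkbia, the inhibitor of NF-kappaB, had 3 such sites.

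At the best site of Nfkbia, 30.4 kb from the start (chr12:55461871-55462276), the folds were 12.3 and 9.61 with DEX and no vehicle peak was called. Anxa1, which encodes annexin A1, a mediator of the anti-inflammatory response, had folds of 8.33 and 8.88 at a site 2.69 kb upstream (chr19:20393584-20393853). Ddit4, an inhibitor of mTORC1, had a site called in all 4 libraries (chr10:59909459-59909718), with folds of 19.8 and 17.6 with DEX and 8.16 and 9.8 with vehicle.

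Tsc22d3, Tnfaip3, Zfp36, Il1rn, Cd163 and Lcn2 had no DEX site within 50 kb of the start. Tsc22d3, which encodes the glucocorticoid-induced leucine zipper protein GILZ, had 2 DEX-only sites when the gene body and 50 kb to either side were counted. Zfp36, which encodes an mRNA-destabilizing protein, had 0 peaks in all 4 libraries in that range.

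In the list of transcription factors, the highest sites were those in Hif3a and Per1 given above. Cebpd, a regulator of inflammation and of fat cell differentiation, had a site in its untranslated region 3.4 kb past the annotated start (chr16:15890606-15890718), with folds of 12.5 and 11.3. Klf9, a repressor known to be induced by glucocorticoids, had 2 DEX-only sites upstream, with the best at 7.94 and 11.9 (chr19:23135519-23135640). The Klf9 site printed above, 6.1 kb upstream, had folds of 8.82 and 7.25 and held a GRE 27 bp from its summit.

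Foxo3 and Sox9 had 1 weaker DEX-only site each, at folds of 6.71 and 6.54 and of 6.84 and 5.85. Klf15, Klf4, Zbtb16, Cebpb, Foxo1, Bcl6, Ets2 and Runx1 had no DEX site in the window.

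Among metabolic and stress targets, the metallothionein genes Mt1 and Mt2, whose products bind zinc and other metals, had 5 and 4 DEX-only sites, most of them shared. Their best site, 1.16 kb upstream of Mt2 (chr8:94171252-94171856), had folds of 12 and 13.3, and its window held both a GRE and AP-1. Pdk4, a kinase that blocks pyruvate dehydrogenase, had 4 DEX-only sites, with the best at 10.6 and 9.99.

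Glul, glutamine synthetase, had 1 site 1.67 kb past the start (chr1:153901552-153901662), with folds of 6 and 8.33 and the element GAACAATATGTTC. At Fam107a, an actin-associated gene induced by stress hormones, the folds were 6.13 and 6.69. Mertk, a receptor for dying cells, had folds of 6.82 and 4.44. These weak sites had a full GRE and no vehicle peak, so the element was not confined to the strongest sites.

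Of 23 extracellular matrix genes, 12 had a DEX-only site within 50 kb of the start (52.2%, against 8.21% of all coding genes). A vehicle site lay near 1 of 23, against 1.52% of all coding genes. Within 20 kb of the start the count of genes with a DEX-only site was 5 of 23, against 3.46% of all coding genes. Lox, which cross-links collagen, had 4 DEX-only sites, and its best had folds of 15.9 and 12.1. Col6a2, a chain of collagen VI, had 3, with the best 12.6 kb upstream at 12.9 and 10.6 (chr10:76636062-76636348), and that window held both a GRE and AP-1.

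Ccn1, a matricellular protein, had 5 DEX-only sites, with its best at 12.5 and 10.5 (chr3:145692007-145692487). Dcn and its neighbour Lum, both small leucine-rich proteoglycans, shared 1 site, at 8.86 and 8.47. Timp3, an inhibitor of matrix proteases, had a GRE at its best site (12.9 and 11.1), where vehicle replicate 2 also had a peak of 5.11. Col1a1, Col1a2, Col5a2, Col6a1, Fn1, Thbs1, Timp1 and Mmp3 had no DEX site in the window.

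Among circadian clock genes 7 of 19 had a DEX-only site (36.8%, against 8.21% of all coding genes). Beside Per1, Nfil3, a repressor of the D-box, had a site 5 kb upstream (chr13:52985832-52986163) with folds of 11 and 9.89 and a GRE. Tef, an activator of the D-box, had one with a GRE at 8.33 and 11.1. Per2 had 2 DEX-only sites, one of them 0.943 kb past the start, at 5.46 and 8.88. Arntl, which encodes the activator BMAL1, had one at 10.6 and 10.2.

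Of the genes for GR, its chaperones and coregulators, 6 of 18 had a DEX-only site (33.3%, against 8.21% of all coding genes). A vehicle site lay near 3 of 18 (16.7%, against 1.52% of all coding genes). Hsp90aa1, which encodes the chaperone that holds the unliganded receptor, had folds of 11.8 and 8.47 at a site 14.8 kb from its start. At the promoter of Stip1, a co-chaperone, the folds were 15.3 and 13.2 with DEX and 14 and 13.1 with vehicle, so the 4 libraries overlapped there. Nr3c1, the gene of GR itself, had no DEX site within 50 kb of its start.

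The lists of immediate early genes (4 of 19), cytoskeleton and adhesion (6 of 23), adipocyte differentiation (3 of 16) and growth factor and TGF-beta signalling (4 of 23) held DEX-only sites at 17.4 to 26.1% of their genes. The share over all coding genes was 8.21%. Near Jun, a subunit of AP-1, DEX replicates 1 and 2 had 8 and 6 peaks and vehicle replicates 1 and 2 had 0 and 1. Jun had 5 DEX-only sites. Itga5, an integrin subunit, had 4, with the best at 11.9 in both DEX replicates. Nedd9, a focal adhesion scaffold, had 7, and both vehicle libraries had 0 peaks there.

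Inflammatory genes were near the background. Only Csf1 of 21 had a DEX-only site (4.76%, against 8.21% of all coding genes), at folds of 8.2 and 4.44. Within 20 kb the count was 0, against 3.46% of all coding genes. Within 100 kb it was 4 of 21, a window in which 3370 of 21938 coding genes had one. Counting any DEX site within 50 kb, 3 of 21 had one (14.3%, against 10.1% of all coding genes). Il6, Il1b, Tnf, Ccl2, Ptgs2 and Icam1 were among those with no DEX site. Cxcl1, a neutrophil chemokine, had a DEX site (6.16 and 5.5) where vehicle replicate 2 had a higher peak, of 9.58.

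Genes of other cell types and of general upkeep were set beside the same share of 8.21% of all coding genes. Of 15 astrocyte genes 2 had one, Slc1a3 and Glul (13.3%), of 15 neuron genes 1, Dlx2 (6.67%), and of 20 housekeeping genes 1, Vcp (5%). Defining markers were counted with any DEX site, which 10.1% of all coding genes had. Of the markers of fibroblasts 5 of 10 had one, namely Col3a1, Thy1, Vim, Dcn and Lum, and Dcn and Lum shared 1 site. The count was 1 of 5 for astrocytes and 0 of 5 for neurons. A peak near a gene is not its expression, so these counts do not check the cell type.

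**Figure D4:**
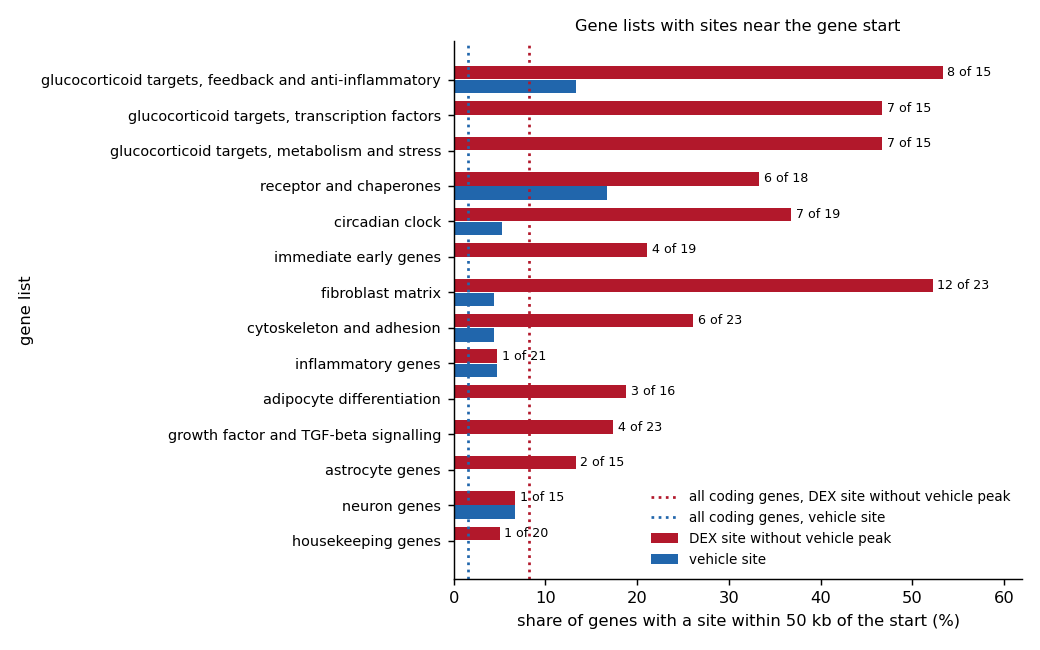
Share of the genes of each list (percent) with a DEX-only site (upper bars, with counts) or a vehicle site (lower bars) within 50 kb of the start. Dotted lines give the same shares over all coding genes, 8.21% and 1.52%, and the target, matrix and clock lists extend well past the first of them while the inflammatory and housekeeping lists do not. The lists were chosen with earlier results of these data known.

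Beyond the lists, the coding genes with the most DEX-only sites were Armc12, Dusp1, Ergic1 and Fkbp5 with 8 each, Nedd9 with 7, and Clpsl2, Irf2bp2, Nup93 and Spp1 with 6 each. Clpsl2 lies beside Armc12 and Fkbp5. Irf2bp2 encodes a transcriptional corepressor, Nup93 a nuclear pore scaffold that lies beside the metallothioneins, and Spp1 the matrix protein osteopontin. At Spp1 both DEX libraries had 6 peaks, both vehicle libraries had 0, and the DEX libraries of 50000 nuclei had 1 and 3. Most of the 1801 genes with a DEX-only site, 1371, had just 1.

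DEX sites were compared with GR sites of astrocytes from normally reared (NR) mice. These libraries were made from GFP+ astrocyte nuclei of the visual cortex (V1) at postnatal day 14, labelled by a virus whose GfaABC1D promoter drives GFP in astrocytes and then sorted, with several mice pooled per library. A site called in at least 2 of the 3 NR libraries overlapped 213 of 2885 DEX sites (7.38%, interval 6.48 to 8.39%), and 215 of the 12458 astrocyte sites (1.73%) overlapped a DEX site. By class, the share was 6.72% of DEX-only sites, 9.97% of DEX sites with a vehicle peak and 14.3% of the 238 vehicle sites. Peaks of Hif3a and Per1 were among those called in all 3 NR libraries. Of the 20 best DEX-only sites, only these 2 had a peak in any NR library.

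GR-KO and GR-Con astrocytes came from GR fl/fl mice of the same age that had received the virus with or without an active Cre. In GR-KO astrocytes, peaks at these sites were scarce. The 2 knockout libraries had a peak at 0.48% each of DEX-only sites, against 5.93% and 5.1% in the 2 libraries of their control group. At DEX sites with a vehicle peak the shares were 2.36% and 0.845% in the knockout and 7.43% and 8.61% in the control. The knockout libraries had 1846 and 413 peaks and the control libraries 7761 and 6792, and the part of these numbers in the shares was not tested.

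**Figure D5:**
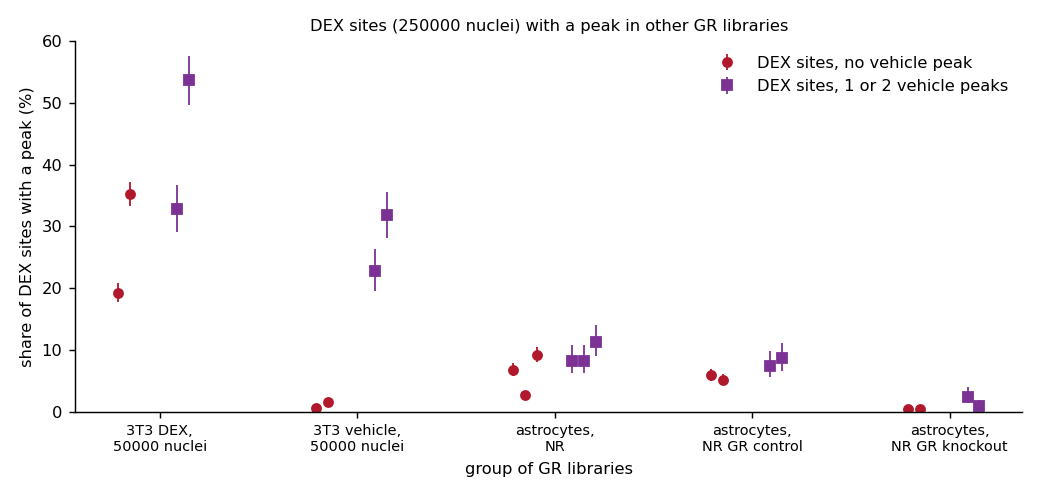
Share of DEX sites of 250000 nuclei (percent, with Wilson 95% intervals) that have a peak in each library of other GR groups, for DEX-only sites (circles) and for DEX sites with 1 or 2 vehicle peaks (squares). At DEX-only sites the DEX libraries of 50000 nuclei reach 19.3% and 35.2% and the vehicle libraries 0.523% and 1.53%, and the GR knockout astrocytes 0.48% each.

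The full GRE was more frequent at DEX peaks of 3T3 cells than at astrocyte GR peaks. With peaks of q under 0.01 in both, as the astrocyte lists hold, summits carried it at 4.02% ± 0.0528 (SD, n = 2) with DEX and 0.714% ± 0.196 (SD, n = 3) in NR astrocytes. The difference from flanks was 3.16 points higher with DEX (exact permutation test, two-sided, p = 0.2, the smallest that 2 against 3 libraries allow). AP-1 was at 2.28%, 2.96% and 2.44% of astrocyte summits, near the level of their own flanks. Cell type, ligand and tissue preparation all differ between these groups and cannot be told apart.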

How the data were processed

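GR CUT&RUN peak lists of 2 DEX and 2 vehicle libraries of 250000 3T3 nuclei were analysed, with the other lists of the series for comparison. According to the methods, adapters were cut by the authors (cutadapt), mapping was to mm10 (Bowtie2), duplicates (Picard) and poorly mapped reads (SAMtools) were dropped, fragments of at most 120 bp were retained (deepTools), and MACS2 was run on each library with IgG as control at a q threshold of 0.05. The IgG and read files were not analysed here. The deposited values are the fold enrichment of each summit over background (a ratio) and the −log10 p and −log10 q of the peak. No counts per site were at hand, so no per-site model was fitted, and depth is known only as the background solved from fold and p (whole pileups within 0.002 on the −log10 p scale for all but 1 peak of the 8 3T3 lists). Intervals cover counting error only.

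Overlaps (1 bp), places (GENCODE M21, promoter within 500 bp of a start), motif windows (50 bp to either side of the summit, GRCm38 sequence from RefSeq, which is the same assembly as mm10) and genes (50 kb around the start of a coding gene) were computed with Python 3.11.15, NumPy 2.4.6, SciPy 1.17.1 and pyfaidx 0.9.0.4, and each step was tested on simulated data. Groups were compared over libraries with exact permutation tests, adjusted by Benjamini-Hochberg over 14 motifs. All genes of the lists were matched by symbol. Named sites are the 20 best DEX-only, 8 best shared and 8 best vehicle-only sites by mean rank of fold, with the 8 coding genes with most DEX-only sites (9, as 4 tied) and list members. Sequences were printed for those of the 20 best DEX-only sites with a GRE, for the best other DEX-only site with a GRE of each target gene in the order of the lists, and for the best 3 shared and 1 vehicle-only site with AP-1, leaving out chromosome 18. The members and lists were chosen with earlier results of these data known. Alternatives were stricter q, other overlaps and windows, equal numbers of peaks, single libraries left out and the replicate number as a block.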

Additional observations from a re-analysis of the deposited data

How the results depend on the processing

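The log2 difference in peak number, 2.94, was 3.02 with q under 0.01, 2.90 with a fold of at least 5 and 2.84 with a pileup of at least 8, a setting chosen after seeing the data. With the replicate number as a replicate block it stayed 2.94 (exact sign flips of paired differences, p = 0.5, the smallest possible). Same-numbered libraries did not deviate together over the 204 regions called in all 4 (correlation -0.06). Adding the 50000-nuclei libraries, with labels permuted within nuclei number, gave a log2 difference of 2.48 (exact permutation test, p = 0.0556, the smallest possible). Leaving out 1 library gave 2.22 to 3.66 for it, 2363 to 4290 DEX-only sites (2293 with all), 29 to 307 vehicle-only sites (19, alternatives for these chosen after seeing the data), 2226 to 3600 genes with a DEX site (2226), 1840 to 3194 with a DEX-only site (1801), differences of 3.7 to 3.97 points for the GRE, 6.47 to 6.61 for its core, -11.5 to -8.34 for AP-1 and -2.79 to -0.282 for promoters, and 14.7 to 32.6 points for the share of DEX sites called with 50000 nuclei (24.1). The highest vehicle-only count came without vehicle replicate 1, and it was 52 without vehicle replicate 2. The DEX-only counts of 3966 and 4290 and the highest gene counts came without DEX replicate 1 or 2.

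With equal numbers of peaks there were 130 DEX-only and 76 vehicle-only sites, and an overlap of at least 50% of each peak gave 1907 and 35. Genes with a DEX site were 963 within 20 kb, 4025 within 100 kb and 4555 with peaks of at least 1 library, and those with a DEX-only site 760, 3370 and 4166. Summit minus flank shares of motifs were compared as DEX minus vehicle. That difference kept its direction under all 8 alternatives for the GRE, its core and half-site, AP-1, TEAD and RUNX. For the GRE it was 2.24 to 10.7 points. The sign turned for C/EBP with 25 bp (-0.163) and equal numbers (-0.524), the NFI half-site with 100 bp (0.602) and equal numbers (1.44), the CTCF core with 100 bp (0.0892), the GC box (0.2) and CREB (-0.0197) away from starts and the E-box with 25 bp (0.075). Leaving out 1 library gave -2.1 to 1.15 for the NFI half-site, -0.0962 to 0.000382 for the NFI full site, -0.0641 to 0.453 for ETS and -0.0815 to 0.16 for CREB, each with a turned sign, the first 3 without vehicle replicate 2 and CREB without vehicle replicate 1. The cause was not tested. No test of 2 against 2 libraries can pass 0.05, so a p here says nothing of stability.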

Other observations

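The highest peak of vehicle replicate 2 lay in a coding exon of Syne2 (chr12:76109819-76110056), which encodes the nuclear envelope protein nesprin-2. Its fold enrichment was 522 and its −log10 p 1999, against 33.1 for the next highest fold of that library. Of the 39 libraries with a list, 5 had a peak there, and 0 of the 7 other 3T3 libraries did. The peak had no DEX or replicate counterpart, so it entered no site of either group.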
